A study of Mus musculus with 18 samples.

Results

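The genes described are 9 chemokine receptors, Cxcr2, Cxcr3, Cxcr4, Cxcr6, Ccr1, Ccr2, Ccr7, Ccr9 and Cx3cr1, which were chosen by symbol from the 17569 genes present in both of the study's mouse expression tables. All 9 were found in each table, which held 19780 genes for LSK (Lin−Sca-1+c-Kit+ stem and early progenitor cells) and 18428 genes for common myeloid progenitors (CMPs). The cells were sorted from bone marrow of female mice and their mRNA was sequenced, with 3 samples in each group. LSK came from NZBW/F1 mice, the cross of NZB and NZW parents that develops lupus spontaneously, at 12 weeks before disease (F1-P) and at 28 to 36 weeks with proteinuria (F1-L), and from C57BL/6 mice of 12 weeks (B6-Y) and of 28 to 36 weeks (B6-O). CMPs came from F1-P and F1-L mice only. F1-L mice were therefore both older and diseased relative to F1-P mice, and the contributions of age and disease cannot be told apart within this strain. The labels name 3 samples per group but do not say how many mice each held, so the tests measure the spread between these samples. For CMPs the study's description gives several per replicate, without saying whether these were pooled mice.

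Chemokine receptors are G protein-coupled receptors of the leucocyte surface that read gradients of small secreted proteins and steer cells between marrow, blood and tissue. Cxcr4 binds Cxcl12 and holds stem and progenitor cells in the bone marrow, whereas Cxcr2 on neutrophils favours their release from it. Ccr2 governs the exit of Ly6C-high monocytes, Cx3cr1 marks monocytes and their precursors, Ccr1 is carried by neutrophils and monocytes, Cxcr3 and Cxcr6 are receptors of activated T cells and natural killer (NK) cells, Ccr7 guides lymphocytes and dendritic cells to lymph nodes, and Ccr9 guides T cell precursors to the thymus and lymphocytes to the gut.

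The 9 genes lay on 4 chromosomes of GRCm38, and 5 of them on chromosome 9. Cxcr6 (123806475 to 123811760), Ccr1 (123962124 to 123968692) and Ccr2 (124101950 to 124113557) lay in one cluster with Ccr9 (123678439 to 123784330), and Cx3cr1 (119901616 to 120069879) lay further from them. Cxcr2 (74153989 to 74161246) and Cxcr4 (128588199 to 128592293) were on chromosome 1, Ccr7 (99144196 to 99155077) on chromosome 11 and Cxcr3 (101731535 to 101734269) on chromosome X. The reads were 75 bases long and carried no strand. Of the 75-base words in the exons of Ccr9, 19.3% were also found in transcripts of other genes, and its exons overlapped 3 other annotated genes, 2 of them on the opposite strand, so its level is uncertain. The share was 1.16% for Ccr2, 1.81% for Cxcr2, 0.113% for Cx3cr1 and 0 for the other 5 genes.

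Sequence before the transcription start was available for 8 of the 9 genes, all but Ccr7, in the RefSeq promoter table of GRCm38.p6. The 150 bases before the start were searched on both strands for letters bound by blood cell factors, GAGGAAG for PU.1, TTGCNNAA for C/EBP, AGGTGNGA for T-box factors, TGTGGT for RUNX and AGATAA for GATA factors. The RUNX letters were found before 4 of the 8 genes, Cxcr3, Cxcr6, Ccr1 and Cx3cr1, and in 8.4% of all 32851 promoters of the table. The PU.1 letters were found before Cxcr3 alone (6.85% of all promoters), the GATA letters before Ccr2 alone (5.65%), and the C/EBP (5.46%) and T-box (2.61%) letters before none. Several of these stretches overlap the gene itself, because GENCODE annotates a start further upstream than RefSeq does. All 150 bases of Ccr2 and Cx3cr1 and 122 of the 150 bases of Cxcr3 lay in untranslated exon sequence of the gene, the 150 bases of Ccr9 lay within the gene, and 5 bases of Cxcr2, 2 of Cxcr6 and 0 of Ccr1 and Cxcr4 did. The sequences of Cxcr6 and Ccr1 are printed 5′ to 3′ as the RUNX matches that lie before the gene by both annotations, and Cxcr2 is added because its level followed that of Ccr1 across samples while its sequence held none of the 5 motifs. Capitals mark a match, here in the reverse complement (ACCACA).
Cxcr6 (chr9:123806327-123806476, plus strand): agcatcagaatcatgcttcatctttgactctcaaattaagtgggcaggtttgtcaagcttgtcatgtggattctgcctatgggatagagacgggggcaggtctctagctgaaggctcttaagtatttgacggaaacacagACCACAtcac
Ccr1 (chr9:123968693-123968842, minus strand): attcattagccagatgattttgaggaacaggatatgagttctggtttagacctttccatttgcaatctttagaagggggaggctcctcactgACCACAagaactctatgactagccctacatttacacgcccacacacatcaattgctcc
Cxcr2 (chr1:74153844-74153993, plus strand): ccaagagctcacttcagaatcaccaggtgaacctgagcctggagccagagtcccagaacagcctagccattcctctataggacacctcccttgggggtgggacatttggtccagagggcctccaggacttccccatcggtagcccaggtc
Counted back from the RefSeq start, the RUNX letters began 10 bases before Cxcr6 and 58 before Ccr1. A match of letters is a description of the sequence and no evidence of binding.

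Values are CPM, read counts relative to a scaled library size, as deposited, from 23772252 to 28493747 reads in LSK and 20001328 to 24761060 in CMP samples. Of the reads, 16.8% to 36.6% fell on immunoglobulin genes in NZBW/F1 LSK, 0.301% to 4.76% in C57BL/6 LSK and at most 0.255% in CMPs. The gate used CD11b, Gr-1, Ter119, B220 and CD16/32 to exclude mature cells, and named no T cell marker. All 9 genes of a stem and early progenitor list were detected in both cell types, with Kit at 257 to 657 CPM in LSK and 416 to 668 in CMPs. Ly6a, the gene of Sca-1, was at 293 to 879 CPM in NZBW/F1 LSK, 35.5 to 113 in C57BL/6 LSK and 1.14 to 6.7 in CMPs, although the study's methods give the CMP gate as Sca-1+. Markers of mature cells were present as well. All 11 neutrophil markers were found in every LSK group, with a summed level of 307 to 12600 CPM in NZBW/F1 LSK, 494 to 10900 in C57BL/6 LSK and 65.4 to 8600 in CMPs. In bulk RNA, fewer cells of a type and less RNA per cell cannot be told apart, and this holds for every level given here.

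Per kilobase of exon, Cxcr4 had the highest level of the 9 receptors in each of the 6 groups, and its lowest sample lay above the highest sample of the receptor ranked next. The divisor was the length of all annotated exons, 10260 bases for Ccr9, 6760 for Ccr2, 1808 for Cxcr4 and 1731 for Cxcr3. The order depends on it. In CPM, Ccr2 reached 142 in F1-L LSK and 94.1 in F1-P CMPs, above the lowest Cxcr4 samples (87.5 and 48.3). In F1-P LSK every Ccr9 sample (50.9 to 81.2 CPM) lay above every Cxcr3 sample (9.69 to 19.0), unlike their means per kb. The level of Cxcr4 was 59.6 ± 7.05 CPM per kb (mean ± SD, n = 3) in F1-P LSK, 68.5 ± 21.7 in F1-L LSK, 53.5 ± 11.6 in B6-Y LSK and 34.4 ± 3.2 in B6-O LSK, and 52.6 ± 22.6 in F1-P CMPs and 38.0 ± 11.7 in F1-L CMPs. The receptor ranked next was Cxcr3 in F1-P LSK (8.22 ± 2.68 CPM per kb), Ccr2 in F1-L LSK (13.3 ± 7.04) and in B6-Y LSK (4.54 ± 1.25), Cxcr6 in B6-O LSK (4.43 ± 3.18), Cxcr2 in F1-P CMPs (11.6 ± 9.41) and Ccr2 in F1-L CMPs (6.91 ± 3.5). Below Cxcr4 most neighbours in the order overlapped. In F1-P LSK, Cxcr3, Ccr2, Ccr9 and Cxcr6 followed each other from 8.22 to 6.04 CPM per kb with overlapping samples, then came Ccr7 at 3.77 ± 0.741, separated from Cxcr6 above and from Cxcr2 below (1.74 ± 1.01), and Ccr1 was lowest at 0.718 ± 0.5. In F1-L LSK, B6-Y LSK and B6-O LSK no neighbours after Cxcr4 were separated. In F1-L CMPs, Cxcr3 (0.0674 ± 0.0922 CPM per kb) and Ccr9 (0.0639 ± 0.0145) were lowest and lay below Cxcr6 (0.291 ± 0.0961). In CPM, Ccr9 (0.5 to 0.796) overlapped Cxcr6 (0.361 to 0.727) in that group and lay above Cxcr3 (0 to 0.299).

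**Figure D1:**
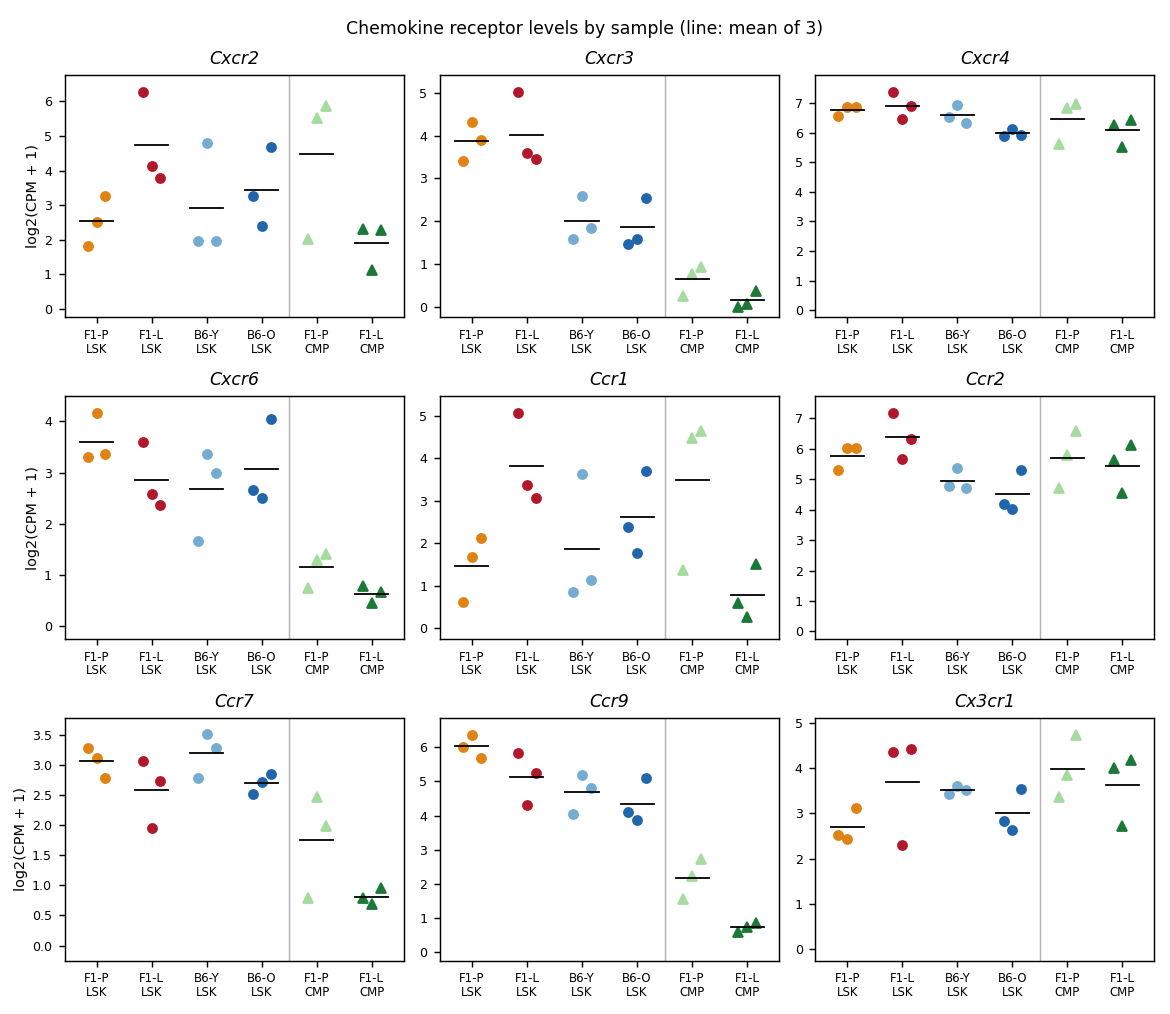
Level of each receptor in every sample as log2(CPM + 1) on the vertical axis, by group on the horizontal axis. Circles are LSK samples, triangles CMP samples and black lines the mean of 3 samples. Cxcr3 in NZBW/F1 LSK (9.69 to 31.6 CPM) lies above every C57BL/6 LSK sample (1.77 to 5.0 CPM) and every CMP sample (0 to 0.901 CPM).

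Cxcr3, Ccr2 and Ccr9, receptors of T and NK cells, monocytes and T cell precursors, rose in NZBW/F1 relative to C57BL/6 LSK over both ages, so that 3 of 9 receptors passed the thresholds (limma on log2(CPM + 1), adjusted p of at most 0.05 over all genes and fold change above 1.5), and 0 fell. Among all 15084 genes tested, 19.0% passed in either direction and 11.9% upwards. On recovered reads the quasi-likelihood test of edgeR called 3 receptors (21.0% of all genes), the likelihood ratio test 3 (22.2%) and DESeq2 4 (21.9%). For 1 of 9 receptors, Cxcr3, the strains did not overlap, against 15.3% of all genes. The median log2 fold change was 0.46 over the 9 receptors and −0.03 over all genes.

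Cxcr3, the receptor for the interferon-induced chemokines Cxcl9 and Cxcl10, had CPM values of 9.69, 19.0 and 14.0 in F1-P LSK and 31.6, 11 and 9.93 in F1-L LSK. In B6-Y LSK the values were 1.98, 5.0 and 2.58, and in B6-O LSK 1.77, 1.99 and 4.85. The lowest NZBW/F1 sample was above the highest C57BL/6 sample, and the F1-L and F1-P samples overlapped. The log2 fold change of Cxcr3 between the strains was 2.02 (SE 0.307, adjusted p = 0.000305), higher in 6 of 6 NZBW/F1 samples. At 12 weeks it was 1.88 (SE 0.325, adjusted p = 0.0066), and at 28 to 36 weeks 2.15 (SE 0.484, adjusted p = 0.0313). The strain call held in all 23 alternative settings tried, with log2 fold changes of 1.78 to 2.42 and adjusted p of 5.3e-10 to 0.00119. NZBW/F1 reads were aligned to the C57BL/6-based genome, and the effect of this on strain differences was not tested.

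NK cell markers moved with Cxcr3 in LSK. The sum of 8 NK cell markers was 234 to 519 CPM in NZBW/F1 LSK and 54.0 to 108 in C57BL/6 LSK, all 8 reached 1 CPM in at least 1 sample of each of these groups, and Ncr1, which encodes the NK cell receptor NKp46, was at 43.6 to 124 CPM in NZBW/F1 and 2.75 to 6.79 in C57BL/6 samples. Across the 12 LSK samples, which share the strain difference, Pearson's r on the log2(CPM + 1) scale between Cxcr3 and the NK sum was 0.961. It was 0.889 with the sum of monocyte or macrophage markers, 0.886 with that of 8 plasma cell markers and 0.862 with that of T cell markers, so Cxcr3 followed more than 1 list. Over the 6 CMP samples, where Cxcr3 was at 0 to 0.901 CPM, r with the NK sum was 0.717. There it was 0.989 with the neutrophil sum and 0.966 with the T cell sum. The plasma cell sum was 9740 to 37900 CPM in NZBW/F1 LSK and 253 to 2530 in C57BL/6 LSK. The part of these cells in the level of Cxcr3 was not tested.

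Ccr9, the receptor for Ccl25, had CPM values of 63.7, 81.2 and 50.9 in F1-P LSK and 56.4, 18.7 and 37.0 in F1-L LSK. It was at 15.5, 35.1 and 27.0 in B6-Y LSK and 16.1, 13.5 and 33.0 in B6-O LSK. F1-P samples lay above all C57BL/6 samples, whereas 1 F1-L sample, replicate 2, lay within their range. The log2 fold change between the strains was 1.06 (SE 0.299, adjusted p = 0.0166), and at 12 weeks alone 1.35 (SE 0.297, adjusted p = 0.0185). At 28 to 36 weeks it was 0.78 (SE 0.457, adjusted p = 0.311), with overlapping groups. T cell markers moved with Ccr9. The sum of 8 T cell markers was 83.4 to 215 CPM in NZBW/F1 LSK and 51.2 to 99.8 in C57BL/6 LSK, Cd3e was at 3.7 to 14.2 and 0.62 to 4.02 CPM, and r between Ccr9 and this sum was 0.899 over the 12 LSK samples, beside 0.841 with the plasma cell sum, 0.782 with the monocyte or macrophage sum and 0.732 with the NK sum. The part of these cells in the level of Ccr9 was not tested.

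Cxcr6, the receptor for Cxcl16, and Ccr7, the receptor for Ccl19 and Ccl21, did not pass the thresholds in any LSK comparison in limma without a replicate block. With the block Cxcr6 passed in F1-P against B6-Y (adjusted p = 0.0498). Cxcr6 was at 8.86, 16.9 and 9.23 CPM in F1-P LSK, 11.1, 4.97 and 4.18 in F1-L, 2.17, 9.28 and 6.95 in B6-Y and 5.35, 4.67 and 15.6 in B6-O. Its strain log2 fold change was 0.35 (SE 0.39, adjusted p = 0.52). Ccr7 was at 8.78, 7.7 and 5.88 CPM in F1-P LSK, 7.37, 2.86 and 5.66 in F1-L, 5.92, 10.4 and 8.74 in B6-Y and 4.73, 5.59 and 6.22 in B6-O. Its strain log2 fold change was −0.12 (SE 0.195, adjusted p = 0.663), and all 4 groups overlapped for both genes.

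Ccr2, the receptor for Ccl2 on inflammatory monocytes, was at 38.3, 63.5 and 63.9 CPM in F1-P LSK and 142, 49.4 and 78.8 in F1-L LSK. In B6-Y LSK it was at 26.3, 40.4 and 25.3, and in B6-O LSK at 17.3, 15.1 and 38.6. The lowest NZBW/F1 sample, F1-P replicate 1, lay just within the C57BL/6 range and the other 5 above it. The strain log2 fold change of Ccr2 was 1.35 (SE 0.316, adjusted p = 0.00605). It was 1.88 at 28 to 36 weeks (SE 0.461, adjusted p = 0.0426) and 0.82 at 12 weeks (SE 0.255, adjusted p = 0.0636). The sum of 10 monocyte and macrophage markers was 388 to 818 CPM in NZBW/F1 LSK and 73.0 to 258 in C57BL/6 LSK, and its r with Ccr2 was 0.905 over the 12 LSK samples, beside 0.859 for the NK sum and 0.814 for the plasma cell sum. The gap between the strains in the monocyte sum came from Ly6c2, at 234 to 663 CPM in NZBW/F1 and 15.7 to 122 in C57BL/6 LSK. The other 9 markers summed to 58.6 to 155 CPM in F1-P, 113 to 385 in F1-L, 107 to 144 in B6-Y and 57.4 to 136 in B6-O, and overlapped between the strains. The part of these cells in the level of Ccr2 was not tested.

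Cx3cr1, the receptor for Cx3cl1, was at 4.78, 4.38 and 7.73 CPM in F1-P LSK and at 9.7, 11.2 and 10.5 in B6-Y LSK, so that every F1-P sample was below every B6-Y sample. It fell by 0.82 on the log2 scale in F1-P relative to B6-Y (SE 0.223, adjusted p = 0.0412). In F1-L LSK it was at 19.5, 3.94 and 20.4 CPM and in B6-O LSK at 6.1, 5.24 and 10.7, with overlapping groups and a difference of 0.69 on the log2 scale (SE 0.583, adjusted p = 0.477). Over both ages the difference was −0.07 (SE 0.389, adjusted p = 0.917).

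Cxcr4 was at 93.1, 116 and 115 CPM in F1-P LSK and 165, 87.5 and 119 in F1-L LSK. It was at 91.7, 120 and 78.7 in B6-Y LSK and 58.4, 68.9 and 59.4 in B6-O LSK. B6-O was the group with the lowest values, below every sample of the other 3 LSK groups. Cxcr4 rose in F1-L relative to B6-O, by 0.94 on the log2 scale (SE 0.229, adjusted p = 0.0421). At 12 weeks the difference was 0.17 (SE 0.179, adjusted p = 0.575), and over both ages 0.55 (SE 0.184, adjusted p = 0.0359), which is below the fold change minimum.

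**Figure D2:**
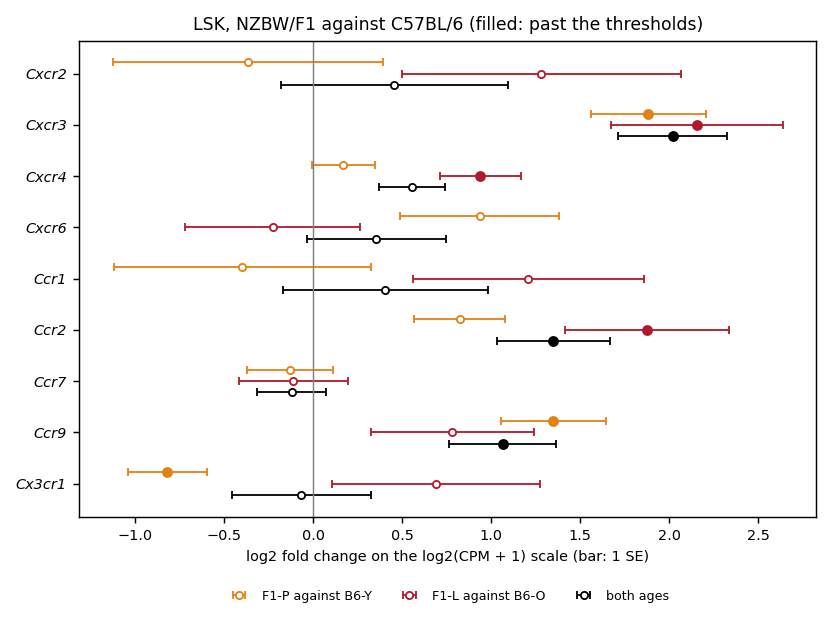
Log2 fold change of each receptor in NZBW/F1 against C57BL/6 LSK on the log2(CPM + 1) scale (horizontal axis, bars 1 SE), at 12 weeks (orange), at 28 to 36 weeks (red) and over both ages (black). Filled points passed the thresholds. Cxcr3 is filled in all 3 comparisons, at 1.88, 2.15 and 2.02.

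By age group, 3 of 9 receptors passed in F1-P against B6-Y LSK, Cxcr3 and Ccr9 upwards and Cx3cr1 downwards, against 16.2% of all 14380 genes tested. In F1-L against B6-O LSK, 3 of 9 passed, Cxcr3, Cxcr4 and Ccr2, all upwards, against 11.6% of 14381 genes in either direction and 7.84% upwards. In each comparison the 3 receptors that passed were also the 3 whose groups did not overlap, against 35.5% of all genes at 12 weeks and 37.4% at 28 to 36 weeks. On recovered reads at 12 weeks, edgeR's quasi-likelihood test called 2 receptors (15.9% of all genes), its likelihood ratio test 4 (19.1%) and DESeq2 4 (19.6%). At 28 to 36 weeks they called 2 (10.8%), 3 (15.2%) and 3 (15.8%). The calls at 28 to 36 weeks depended on single samples. Without F1-L replicate 1, F1-L replicate 3, B6-O replicate 1 or B6-O replicate 2, 0 receptors passed, and without F1-L replicate 2 only Cxcr4 did. At 12 weeks Cxcr3 passed whichever sample was left out, and without F1-P replicate 2 or B6-Y replicate 3 it was the only one. The difference between the age contrasts of the 2 strains was tested directly as an interaction, and 0 of 9 receptors passed, as did 0.0% of 15084 genes. At an unadjusted p below 0.05, Cxcr4 (log2 difference 0.77, SE 0.308) and Cx3cr1 (1.51, SE 0.676) were the receptors with the smallest p, among 591 genes, and both had an adjusted p of 0.977. edgeR's likelihood ratio test called 10 genes (0.0663%) and DESeq2 29 (0.192%) for this interaction, none of them a receptor of the 9.

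Between B6-O and B6-Y LSK, 0 of 9 receptors and 0.0% of 14005 genes passed. At an unadjusted p below 0.05 there were 927 genes, Cxcr4 among them. Its groups did not overlap, and the log2 fold change was −0.61 (SE 0.184, adjusted p = 0.487). For 1 of 9 receptors the groups did not overlap, against 11.3% of all genes tested. The other 8 had log2 fold changes from −0.51 for Cx3cr1 to 0.74 for Ccr1. On recovered reads the likelihood ratio test called 114 genes (0.814%) and DESeq2 207 (1.48%), none of them among the 9.

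The neutrophil receptors Cxcr2 and Ccr1 varied widely between samples of 1 group, and their differences between F1-L and F1-P had opposite signs in LSK and CMPs, a contrast between cell types that was not tested. Cxcr2, the receptor for Cxcl1 and Cxcl2, was at 2.56, 4.67 and 8.65 CPM in F1-P LSK and at 76.5, 16.4 and 12.9 in F1-L LSK. In CMPs it was at 3.07, 45.1 and 57.9 in F1-P and at 4.0, 1.19 and 3.83 in F1-L. The LSK groups did not overlap, and in CMPs F1-P replicate 1 lay within the range of F1-L. Ccr1, a receptor for Ccl3 and Ccl5, was at 0.536, 2.22 and 3.35 CPM in F1-P LSK and at 32.2, 9.26 and 7.32 in F1-L LSK. In CMPs it was at 1.58, 21.1 and 24.0 in F1-P and at 0.5, 0.206 and 1.84 in F1-L. As for Cxcr2, the LSK groups did not overlap and F1-P replicate 1 lay within the F1-L range in CMPs.

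In limma 0 of 9 receptors passed the thresholds between F1-L and F1-P LSK, as did 0.0279% of 14332 genes in either direction and 0.014% upwards. Cxcr2 differed by 2.20 on the log2 scale (SE 0.677, adjusted p = 0.259) and Ccr1 by 2.35 (SE 0.593, adjusted p = 0.198), and they were the 2 of 9 receptors with an unadjusted p below 0.05, among 1830 genes. They were also the 2 receptors whose groups did not overlap, against 17.7% of all genes. Ccr1 met the filter on low values through F1-L, since only 2 F1-P samples reached 1 CPM. The call depended on the test. edgeR's likelihood ratio test on recovered reads, the study's own type of test, called both (log2 fold changes 2.74 and 3.00) among 4.58% of all genes, DESeq2 called both among 5.12%, and edgeR's quasi-likelihood test called neither, with 0.0209% of all genes. Without F1-L replicate 1, the LSK sample with the most Cxcr2 and Ccr1, the limma log2 fold changes were 1.42 and 1.73. Their adjusted p ranged from 0.0146 to 0.657 for Cxcr2 and from 0.000833 to 0.582 for Ccr1 over 18 alternatives.

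In CMPs 6 of the 9 receptors passed the filter on low values (at least 1 CPM in 3 samples), and Ccr1 and Ccr9 did so only through F1-P, the group in which they were higher. Of these, 0 passed the thresholds, as did 0.00774% of 12926 genes. The log2 fold change of Cxcr2 was −2.57 (SE 1.03, adjusted p = 0.502) and that of Ccr1 −2.71 (SE 0.901, adjusted p = 0.455). The likelihood ratio test and DESeq2 each called both lower in F1-L, among 2.38% and 2.72% of all genes, and also called Ccr9, which like Ccr1 had to be higher in F1-P to be tested, and the quasi-likelihood test called none of the 9. In limma without F1-P replicate 1, Cxcr2 (log2 fold change −3.79, adjusted p = 0.0121) and Ccr1 (−3.77, adjusted p = 0.0114) passed, with 434 genes in all. Without F1-P replicates 2 and 3, a setting chosen after the data were seen, the log2 fold change of Cxcr2 was −0.12 (adjusted p = 0.96) and Ccr1 no longer passed the filter. That fit rests on 1 F1-P sample, which is assumed to vary like the others. Ccr9 was at 1.92, 3.71 and 5.68 CPM in F1-P CMPs and 0.5, 0.671 and 0.796 in F1-L CMPs. Its CMP groups did not overlap, which followed from the filter, since all 3 F1-P and 0 F1-L samples reached 1 CPM. This is therefore not comparable with the 16% of all genes tested whose groups did not overlap. The log2 difference of Ccr9 was −1.45 (SE 0.308, adjusted p = 0.353).

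**Figure D3:**
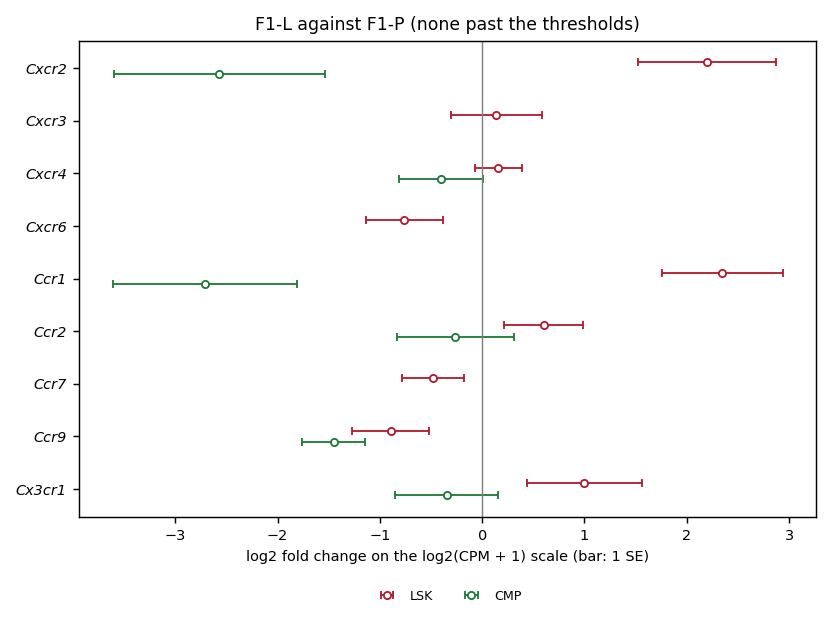
Log2 fold change of each receptor in F1-L against F1-P on the log2(CPM + 1) scale (horizontal axis, bars 1 SE), in LSK (red) and in CMPs (green, the 6 receptors that passed the filter). Cxcr2 lies at 2.20 in LSK and −2.57 in CMPs, Ccr1 at 2.35 and −2.71, and none passed the thresholds in limma.

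Markers of neutrophils moved with both genes. The summed level of 11 neutrophil markers was 307 to 1300 CPM in F1-P LSK and 2030 to 12600 in F1-L LSK, and 319, 6570 and 8600 CPM in the 3 F1-P CMP samples and 65.4 to 440 in F1-L CMPs. All 11 markers were above 1 CPM in F1-P and F1-L LSK and in F1-P CMPs, and at least 8 in each F1-L CMP sample. Ly6g, part of the Gr-1 epitope by which the gate excludes neutrophils, was at 1.2, 2.45 and 5.98 CPM in F1-P LSK and 44.8, 17.3 and 5.48 in F1-L LSK, with overlapping groups, and at 1.25, 27.5 and 38.7 in F1-P CMPs and 0.273, 0.258 and 1.94 in F1-L CMPs. The C57BL/6 samples with the most Cxcr2, B6-Y replicate 2 (27.0 CPM) and B6-O replicate 3 (24.9 CPM), were also those with the most neutrophil markers of their groups (5560 and 10900 CPM). Over 12 LSK samples r with the neutrophil sum was 0.961 for Cxcr2 and 0.967 for Ccr1, and over 6 CMP samples 0.957 and 0.993. The CMP samples rose and fell together in several lists, with r of 0.976 for Cxcr2 and 0.984 for Ccr1 with the T cell sum. The part of neutrophils in the levels of Cxcr2 and Ccr1 was not tested.

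**Figure D4:**
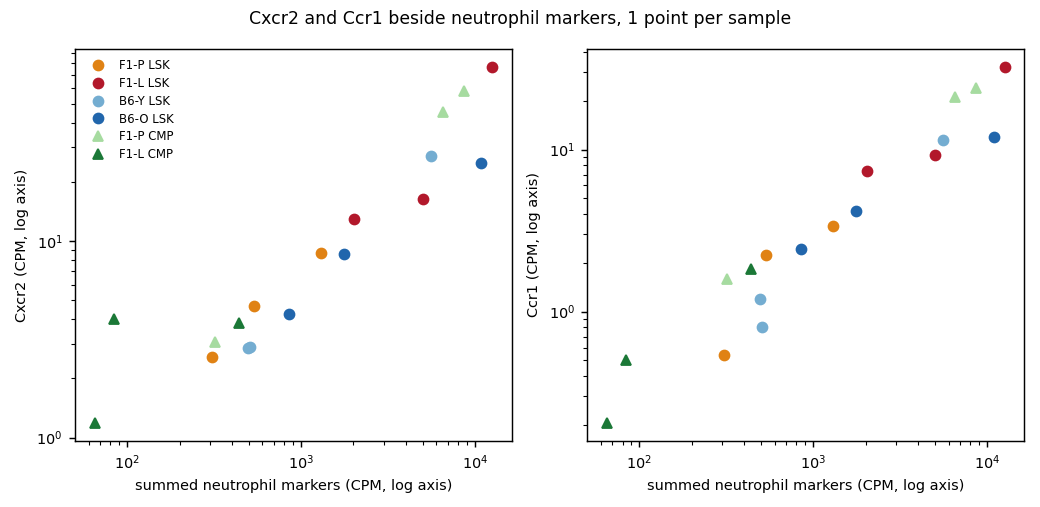
Cxcr2 (left) and Ccr1 (right) in CPM against the summed CPM of 11 neutrophil markers, both on log axes, with 1 point per sample (circles LSK, triangles CMPs). F1-L LSK replicate 1 holds the highest values, at 76.5 CPM of Cxcr2, 32.2 CPM of Ccr1 and 12600 CPM of markers.

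The other 7 receptors did not pass between F1-L and F1-P LSK in any test or alternative tried. Their log2 fold changes were 1.00 for Cx3cr1 (SE 0.565, adjusted p = 0.524), 0.60 for Ccr2 (SE 0.385, adjusted p = 0.581), 0.16 for Cxcr4, 0.14 for Cxcr3, −0.48 for Ccr7, −0.76 for Cxcr6 (SE 0.376, adjusted p = 0.464) and −0.90 for Ccr9 (SE 0.379, adjusted p = 0.391). In every one of these the groups overlapped. In CMPs Cxcr4 was at 48.3, 114 and 123 CPM in F1-P and 75.3, 45.1 and 85.7 in F1-L. Ccr2 was at 25.5, 54.5 and 94.1 and at 48.6, 22.2 and 69.4 CPM. Cx3cr1 was at 9.22, 13.5 and 25.7 and at 15.1, 5.57 and 17.1 CPM. Below the filter, Cxcr6 was at 0.672, 1.46 and 1.65 CPM in F1-P CMPs and 0.727, 0.361 and 0.597 in F1-L, and Ccr7 at 0.72, 4.55 and 2.98 and at 0.727, 0.619 and 0.945. For Cxcr4, Ccr2 and Cx3cr1 in CMPs the groups overlapped and the log2 fold changes were −0.40, −0.26 and −0.35.

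LSK and CMPs were set side by side by receptor and replicate, without a test, since the 2 tables were normalized separately and the cell type cannot be told apart from the table. Cxcr3, Cxcr6 and Ccr9 were higher in every NZBW/F1 LSK sample than in every NZBW/F1 CMP sample, 3 of 9 receptors, where 20.9% of 14526 genes lay higher and 28.4% lower in the same way. Cxcr3 had a lowest, median and highest CPM of 9.69, 12.5 and 31.6 in LSK and 0, 0.245 and 0.901 in CMPs, a ratio of means of 44.3. Its CMP values rested on 4, 16 and 23 reads in F1-P and 0, 1 and 6 reads in F1-L, and the sample at 0 of 21278928 reads allows up to 0.136 CPM, counting error only. Ccr9 ranged over 18.7, 53.7 and 81.2 CPM in LSK and 0.5, 1.36 and 5.68 in CMPs (ratio of means 23.2), and Cxcr6 over 4.18, 9.05 and 16.9 and over 0.361, 0.7 and 1.65 (ratio 10.1). T and NK cell markers followed the same order. Their sums were 83.4 to 215 and 234 to 519 CPM in NZBW/F1 LSK and 5.83 to 35.8 and 12.9 to 45.9 in CMPs. Of either list, 1 or 2 of 8 markers were at 1 CPM or more in each F1-L CMP sample but 7 or 8 in F1-P CMP replicates 2 and 3. This order was not particular to T and NK cell markers. The plasma cell sum was 9740 to 37900 CPM in NZBW/F1 LSK and 65.3 to 309 in CMPs. The stem and early progenitor sum was 1550 to 2300 and 805 to 1530 CPM. Sums of neutrophil, monocyte or macrophage, B cell, plasmacytoid dendritic cell, myeloid progenitor and stromal markers overlapped. The part of any of these cells in the difference was not tested.

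In C57BL/6 LSK the same 3 receptors and Ccr7 lay above all CMP samples, 4 of 9, where 17.3% of 14493 genes lay higher and 22.3% lower. Here Cxcr3, Cxcr6 and Ccr7 met the filter on low values only through LSK, so the same limit holds. Ccr7 was at 4.73, 6.07 and 10.4 CPM (lowest, median and highest) in C57BL/6 LSK and at 0.619, 0.836 and 4.55 in CMPs. In NZBW/F1 LSK it reached down to 2.86 CPM, in F1-L replicate 2, and without that sample it too lay above all CMP samples. Scaled instead to the reads on genes of both tables without immunoglobulin genes, the counts were again 3 and 4. On that scale 28.4% of all genes lay higher and 19.2% lower in NZBW/F1 LSK, and 23.5% higher and 14.6% lower in C57BL/6 LSK. The other receptors, Cxcr4, Ccr2, Ccr1, Cxcr2 and Cx3cr1, overlapped between LSK and CMPs. The ratio of NZBW/F1 LSK to CMP means was 1.41 for Cxcr4, 1.39 for Ccr2, 1.11 for Ccr1, 1.06 for Cxcr2 and 0.704 for Cx3cr1, and with C57BL/6 LSK the ratios were 0.971, 0.519, 0.649, 0.613 and 0.619.

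Matched by stage, the order of LSK and CMPs differed for the neutrophil receptors. In F1-P, Cxcr2 averaged 5.29 ± 3.09 CPM in LSK and 35.3 ± 28.7 in CMPs, with overlapping samples. In F1-L it averaged 35.3 ± 35.8 in LSK and 3.01 ± 1.58 in CMPs, and no samples overlapped. Ccr1 averaged 2.04 ± 1.42 CPM in F1-P LSK and 15.6 ± 12.2 in F1-P CMPs, and 16.2 ± 13.8 and 0.849 ± 0.871 in F1-L. The neutrophil marker sums of the same groups, given above, had the same order. Cx3cr1 was lower in every F1-P LSK sample (5.63 ± 1.83 CPM) than in every F1-P CMP sample (16.1 ± 8.52), whereas in F1-L the samples overlapped (14.6 ± 9.27 and 12.6 ± 6.17). Separation in F1-L was not particular to the neutrophil receptors. Cxcr3, Cxcr4, Cxcr6, Ccr7 and Ccr9, like Cxcr2 and Ccr1, were higher in every F1-L LSK sample than in every F1-L CMP sample. In F1-P this held for Cxcr3, Cxcr6, Ccr7 and Ccr9. The share of all genes separated within a stage was not computed, so how these separations stand against all genes is not known. With both stages together, 20.9% of genes lay higher and 28.4% lower in NZBW/F1 LSK than in CMPs.

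**Figure D5:**
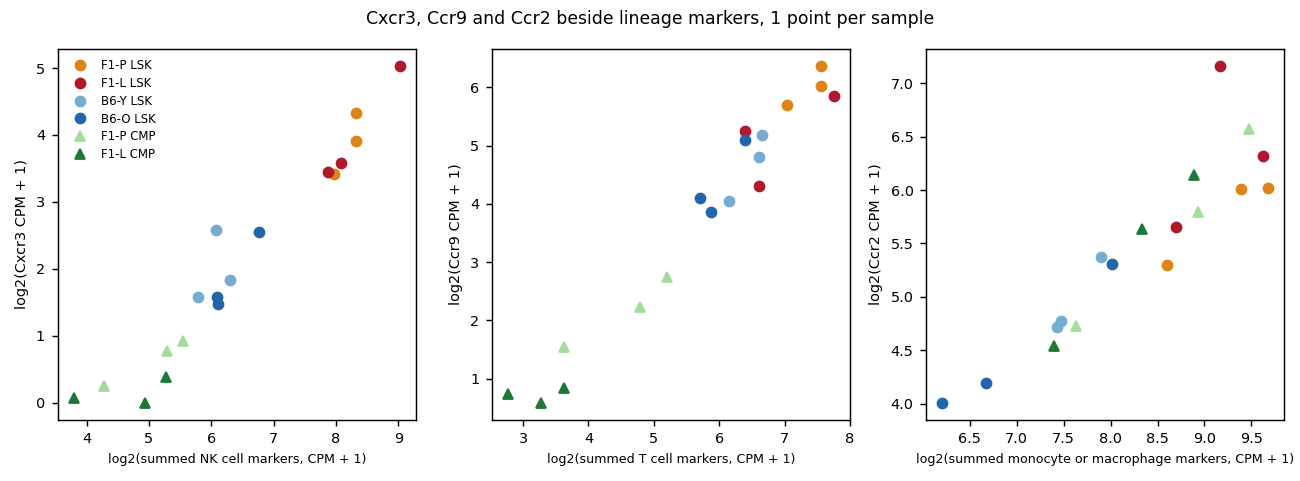
Cxcr3 against the sum of 8 NK cell markers, Ccr9 against 8 T cell markers and Ccr2 against 10 monocyte or macrophage markers, all as log2(CPM + 1), with 1 point per sample (circles LSK, triangles CMPs). CMP samples hold the lowest Cxcr3 (0 to 0.901 CPM) and Ccr9 (0.5 to 5.68 CPM), while their Ccr2 (22.2 to 94.1 CPM) lies within the LSK range (15.1 to 142 CPM).

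Some of the other chemokine receptors, from a list of 16 of which 15 were in the LSK table, also rose in NZBW/F1 relative to C57BL/6 LSK. Of those tested 0 fell, and over all genes 19.0% passed in either direction and 11.9% upwards. No count of the list is set against these shares, because a listed receptor is not reported here. Ccrl2, a receptor-like protein that presents chemerin, differed by 1.10 on the log2 scale (SE 0.177, adjusted p = 0.000467) and Ccr6 by 0.93 (SE 0.222, adjusted p = 0.00689). Ccr10, a receptor of skin-homing lymphocytes and plasma cells (1.67), and Xcr1, the Xcl1 receptor of cross-presenting dendritic cells (1.09), also passed the thresholds, but met the filter on low values only through NZBW/F1, with 0 and 2 C57BL/6 samples at 1 CPM or more. Cmklr1, the chemerin receptor, rose in the fit of F1-L against B6-O (1.10, SE 0.249, adjusted p = 0.032), where it met the filter only through F1-L. Between F1-L and F1-P none passed in LSK or CMPs. The largest differences were −1.88 for Ccr10 and 0.80 for Cmklr1 in LSK, each with the filter met only through the higher group, and in CMPs Ccrl2 differed by −1.64.

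Of 16 chemokine ligands tested between the strains in LSK, 2 rose and 1 fell, a share near the 19.0% of all genes. Xcl1, a chemokine of NK and T cells, differed by 2.81 on the log2 scale (SE 0.31, adjusted p = 2.28e-05), Ccl5, a ligand of Ccr1, by 2.53 (SE 0.371, adjusted p = 0.000223), and Ccl4 fell by 0.79 (SE 0.267, adjusted p = 0.0382). Cxcl10, a ligand of Cxcr3, rose in F1-P relative to B6-Y (1.36, SE 0.351, adjusted p = 0.0342). Of the ligands named for the 9 receptors, Cxcl12 was at 2.47 to 29.7 CPM in NZBW/F1 LSK, 2.72 to 8.83 in C57BL/6 LSK and 0 to 5.21 in CMPs. Ccl25 was at 4.71 to 6.97 CPM in LSK and 5.47 to 6.74 in CMPs, Cx3cl1 at 2.81 to 10.1 and 0.624 to 2.74, Cxcl16 at 0.837 to 3.38 and 0.136 to 1.28, and Ccl2 at 0 to 0.996 and 0 to 1.59. Between F1-L and F1-P no ligand passed in limma. The largest differences were 2.36 for Ccl6 and −1.17 for Cxcl10 in LSK, and 1.34 for Pf4 and −3.13 for Cxcl10 in CMPs, the last with the filter met only through F1-P.

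Of 28 signalling genes downstream of the receptors, 2 rose and 4 fell between the strains in LSK, which is also near the 19.0% of all genes. Grk5, a kinase that phosphorylates active receptors, differed by 1.27 on the log2 scale (SE 0.163, adjusted p = 7.85e-05), and its relative Grk3 fell by 0.85 (SE 0.21, adjusted p = 0.00849). Among the regulators of G protein signalling, which end the signal, Rgs1 (−0.94), Rgs2 (−0.81) and Rgs18 (−0.80) fell and Rgs16 (0.76) rose, which met the filter only through NZBW/F1. Elmo1, a partner of Dock2 in the activation of Rac, fell in the fit of F1-P against B6-Y, by 0.60 (SE 0.155, adjusted p = 0.0351). The G protein subunits and Rac genes of the list did not pass. Between F1-L and F1-P none of the list passed. The largest differences were 0.85 for Grk3 and −0.50 for Rgs16 in LSK, and 0.36 for Rgs18 and −1.18 for Rgs2 in CMPs.

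The genes most like each receptor across the 12 LSK samples, by Pearson's r on log2(CPM + 1) among 11326 genes with a mean of at least 5 CPM, differed between receptors. These values are descriptions, since the samples share strain, age and marker differences. Cxcr2 and Ccr1 were among the nearest genes of each other (0.989 in LSK and 0.98 over the 6 CMP samples), with C5ar1, the C5a receptor, at 0.99 and 0.988, Mmp25 at 0.987 with Cxcr2 and Mmp8 at 0.987 with Ccr1. Cxcr3 was most like Gimap4 (0.991), Gimap8 (0.985) and Cd2 (0.982), all genes of lymphocytes, and in CMPs the values were 0.992, 0.65 and 0.949. Ccr9 was most like Ly9 (0.95), Icos (0.935) and Trac, the T cell receptor alpha constant gene (0.934). Cx3cr1 was most like Mpeg1 (0.931), Csf1r (0.922) and Lifr (0.908), with 0.947, 0.978 and 0.773 in CMPs. Ccr2 was most like Nptn (0.978), Sirpa (0.96) and Eloa (0.955), of which Nptn and Eloa had negative values in CMPs (−0.927 and −0.363). Cxcr4 was most like Nrp1 (0.946), Prkcd (0.945) and Gna11 (0.934), Cxcr6 like Gnptg (0.897), Meis3 (0.895) and Il2rg (0.892), and Ccr7 like Ptger2 (0.913), Rasal3 (0.89) and Slc27a1 (0.86). In CMPs the values were 0.946, 0.961 and −0.239 for the genes of Cxcr4 and −0.575, 0.864 and 0.907 for those of Cxcr6. They were 0.755, 0.465 and 0.541 for those of Ccr7 and 0.731, 0.877 and 0.946 for those of Ccr9.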

How the data were processed

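The authors sequenced poly(A) RNA in 75-base single reads without strand, aligned them with STAR 2.6 to GRCm38 (mm10) and counted them with HTSeq. The deposited values are a signal, gene counts divided by scaled library sizes (CPM), in separate LSK and CMP tables; counts were recovered from them, and 100.0% of values came out whole within 0.1 reads. Genes with at least 1 CPM in 3 samples were tested with limma 3.58.1 on log2(CPM + 1), with Benjamini-Hochberg adjustment over all genes, and a gene passed when its adjusted p did not exceed 0.05 and it changed over 1.5-fold. edgeR 4.0.16 and DESeq2 1.42.0 on recovered reads, other pseudocounts, filters and scalings, a replicate block and leaving out each sample were the alternatives. Scripts were tested on simulated data. The receptors and the lists (other receptors, ligands, signalling and cell type markers) were chosen with earlier results of these data known. Named are the 9 receptors, listed genes past the thresholds, the largest rise and fall of each list between F1-L and F1-P, the ligands Cxcl12, Ccl25, Cx3cl1, Cxcl16 and Ccl2, and the 3 most similar genes. A listed receptor is not reported here. Positions are from GENCODE and promoters from RefSeq, GRCm38.p6. No test crossed the 2 tables. The limit given for a sample at 0 reads covers counting error only, whereas SDs, SEs and the bars of the figures measure the spread between samples.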

Additional observations from a re-analysis of the deposited data

How the results depend on the processing

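Cxcr3, Ccr2 and Ccr9 passed between the strains over both ages in all 23 alternatives. The number of receptors past the thresholds moved in the narrower comparisons. In F1-L against F1-P LSK it was 0 in limma and 2 in both edgeR's likelihood ratio test and DESeq2, and in CMPs 0, 3 and 3, of which Ccr1 and Ccr9 met the filter only through F1-P. In F1-P against B6-Y it was 3, with 5 under the replicate block, and 1 to 3 with a sample left out. In F1-L against B6-O it was 3, with 1 for a mean of at least 5 CPM and 1 under the replicate block, and 0 to 2 with a sample left out. In F1-L against F1-P CMPs it was 0 to 2 with a sample left out. The labels do not say that equal replicate numbers pair the samples, so the block has no basis in them. Deviations of same-numbered samples from their group means had correlations of −0.35 to 0.47 in LSK (7 of 18 above 0.1) and −0.45 to 0.62 in CMPs (1 of 3). These cannot show whether samples were paired, because the 3 deviations of a group sum to 0.

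Signs turned for values not past the thresholds. Over both ages Cx3cr1 was −0.07 on the log2 scale in limma, 0.06 by quasi-likelihood, 0.05 by likelihood ratio and 0.09 in DESeq2. The interaction for Ccr7 was 0.02, and 0.0 with a pseudocount of 0.1. Without F1-P CMP replicates 2 and 3, chosen after the data were seen for their neutrophil markers, Cxcr4 was at 0.45, Ccr2 at 0.71 and Cx3cr1 at 0.28. With a sample left out, F1-L against F1-P LSK ranged from −0.36 to 0.42 for Cxcr3 and −0.07 to 0.38 for Cxcr4. B6-O against B6-Y ranged from −0.07 to 1.5 for Cxcr2, −0.47 to 0.16 for Cxcr3 and −0.10 to 0.75 for Cxcr6. F1-P against B6-Y ranged from −0.85 to 0.58 for Cxcr2, −0.91 to 0.48 for Ccr1 and −0.33 to 0.03 for Ccr7. F1-L against B6-O ranged from −0.60 to 0.26 for Cxcr6 and −0.35 to 0.20 for Ccr7. The strain difference over both ages ranged from −0.23 to 0.02 for Ccr7 and −0.31 to 0.16 for Cx3cr1, and the interaction from −0.23 to 0.61 for Cxcr3 and −0.22 to 0.34 for Ccr7. In CMPs Ccr2 ranged from −0.75 to 0.19 and Cx3cr1 from −0.66 to 0.11. The causes were not tested.

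Over all genes, the alternatives called 0 to 734 genes in F1-L against F1-P LSK (4 in limma), 0 to 207 in B6-O against B6-Y (0), 927 to 2816 in F1-P against B6-Y (2331), 448 to 2285 in F1-L against B6-O (1667), 1885 to 3353 between the strains (2868), 0 to 29 for the interaction (0) and 0 to 434 in CMPs (1).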
